A study of Homo sapiens with 6 samples.

Results

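The transcriptome described here is that of U2OS cells, a human osteosarcoma line, after treatment with 100 μM etoposide for 4 h. It was taken as the 2 libraries labelled with etoposide, out of 6 RNA-Seq libraries in the series. The other 4 libraries, from untreated cells and from adriamycin-treated cells (1.5 μg/ml, also 4 h), were not used, so no value below is a response to the drug. The cells are labelled as wild type and were grown in DMEM with 10% fetal bovine serum. The tissue label is bone and the cell type label is epithelial, and both were checked against marker genes below. Every gene of the deposited list was kept, 67140 of 67140 genes, with raw counts per gene. The study's legends call its replicates technical, although legends on other assays describe separately cultured cells. The difference between these 2 libraries may therefore be technical, and p-values set it against counting error alone, for these samples only. One line of cells was measured in bulk, so fewer cells with a transcript and less of it per cell cannot be told apart.

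Etoposide is a poison of topoisomerase II, the enzyme that passes one DNA duplex through a break in another, and it holds the enzyme on the broken DNA. Double-strand breaks of this kind are known to start a damage response that induces genes for cell cycle arrest, repair and apoptosis. A poly-A transcriptome of a cultured cell is known to be led by mitochondrial, translation, glycolysis and cytoskeleton transcripts, with genes of other lineages at or near 0. Both scales used below start from the library total. CPM are the counts of a gene per 1000000 counts of its library, and CPM per kilobase divides this by the summed length of the gene's annotated exons so that genes can be compared with each other.

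Library 1 held 21450766 counts and library 2 held 14244235 counts, a ratio of 1.51. A single count was worth 0.0466 CPM in library 1 and 0.0702 CPM in library 2. A gene with 0 counts may therefore have a level of up to 0.140 CPM in library 1 and 0.211 CPM in library 2, the values of 3 counts, which cover counting error only. A minimum of 10 counts in each library was met by 17207 genes (25.6%), a level of 1 CPM in both by 15501, and 32968 (49.1%) had no count in either. Among the 19892 protein coding genes, 13041 (65.6%) reached 1 CPM in both libraries and 2308 (11.6%) had no count. Only 62 protein coding genes reached 1000 CPM in both libraries, and 2091 reached 100 CPM.

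Promoters at both ends of this range are shown first, because their letters differed with the level of the gene. The sequences are from RefSeq (build GRCh38.p14), which gave a promoter of 300 bases for 15325 of the 19892 protein coding genes. Each line gives the 250 bases before the start of the gene, 5′ to 3′ on the strand of the gene. Capitals mark CG pairs and, in MT2A, the TATAAA motif, which begins 29 bases before the start. FTL encodes the light chain of the iron store ferritin and was, among nuclear genes whose RefSeq start lies within 50 bases of the canonical transcript, the most abundant gene per kilobase without TATAAA in the last 50 bases, at 1981 and 1802 CPM per kilobase. MT2A encodes a metallothionein, a small protein that binds metal ions. It was the most abundant of the same genes with TATAAA, at 956.1 and 861.8 CPM per kilobase. ACTB, the first nuclear gene per kilobase at 2456 and 2339 CPM per kilobase, had no promoter in this set and was not examined. GAPDH and HSP90AB1 were passed over because their RefSeq start lies elsewhere, a restriction added after seeing the data. ADIPOQ encodes the adipocyte hormone adiponectin and had no count in either library. These promoters lie at chr19:48965059-48965308 (FTL, plus strand), chr16:56608334-56608583 (MT2A, plus strand) and chr3:186842460-186842709 (ADIPOQ, plus strand).
FTL: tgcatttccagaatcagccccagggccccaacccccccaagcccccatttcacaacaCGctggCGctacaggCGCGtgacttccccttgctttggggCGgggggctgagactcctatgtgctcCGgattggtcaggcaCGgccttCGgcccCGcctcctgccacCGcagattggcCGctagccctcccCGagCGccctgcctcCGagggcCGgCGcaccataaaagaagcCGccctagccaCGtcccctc
MT2A: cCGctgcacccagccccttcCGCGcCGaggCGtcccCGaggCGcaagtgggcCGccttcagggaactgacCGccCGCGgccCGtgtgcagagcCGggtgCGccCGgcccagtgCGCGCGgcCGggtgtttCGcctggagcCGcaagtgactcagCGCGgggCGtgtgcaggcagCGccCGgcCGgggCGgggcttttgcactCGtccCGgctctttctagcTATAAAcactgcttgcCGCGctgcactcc
ADIPOQ: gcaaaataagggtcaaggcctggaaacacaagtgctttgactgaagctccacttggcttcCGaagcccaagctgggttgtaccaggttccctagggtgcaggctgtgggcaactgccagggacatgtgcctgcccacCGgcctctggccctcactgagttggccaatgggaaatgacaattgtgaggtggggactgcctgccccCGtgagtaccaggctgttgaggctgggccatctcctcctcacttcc

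The printed stretches hold 18 CG pairs for FTL, 32 for MT2A and 3 for ADIPOQ. Over whole promoters of 300 bases, the median number of CG pairs was 4 in the 1488 matched coding genes with no count, 8 in the 3294 genes counted below 1 CPM in at least 1 library, and 26 in the 10543 genes at 1 CPM or more in both. The median GC content was 48.7%, 57.0% and 65.3% in the same 3 groups. TATAAA, read on the strand of the gene in the 50 bases before the start, was found in 3.93% of all matched promoters. It was found in 11.8% of promoters of uncounted genes, in 7.29% of the low group and in 1.77% of genes at 1 CPM or more, but in 8.50% of the 200 most abundant genes per kilobase. Among promoters whose start lies within 50 bases of the start of the canonical transcript, the same added restriction, the shares were 12.5% for uncounted genes, 1.96% for genes at 1 CPM or more and 9% for the 200 most abundant. The median number of CG pairs was 26 in these 200 genes as well. These shares describe letters in a window and are not evidence of a factor at these sites.

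The most counted transcripts came from the mitochondrial genome and from genes for the cytoskeleton, translation and glycolysis. MT-CO1, which encodes subunit 1 of cytochrome c oxidase, took the most counts, with 15012 CPM in library 1 and 15569.5 CPM in library 2. ACTB, the cytoplasmic beta actin, followed with 10819.5 and 10302.5 CPM, and EEF1A1, the elongation factor that brings aminoacyl-tRNA to the ribosome, with 9104 and 8217 CPM. ACTG1, the gamma actin, had 6313 and 6351 CPM, and GAPDH, a glycolytic dehydrogenase, had 5264 and 5129 CPM. HSP90AB1, a constitutive chaperone, had 4087 and 3811 CPM. The structural genes FLNA, which crosslinks actin filaments, and COL1A1, a chain of type I collagen, held places 10 and 11 with 3468 and 4229 CPM for FLNA and with 3463 and 3624 CPM for COL1A1. The remaining 12 of the first 20 by mean CPM were 9 mitochondrial genes, the glycolytic PKM and ENO1 and the ribosomal protein gene RPS2. The gap between the libraries was largest in size for EEF1A1 (SD 627 CPM) and FLNA (SD 539 CPM), and smallest for MT-ND5 (SD 16.7 CPM), n = 2 each.

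**Figure D1:**
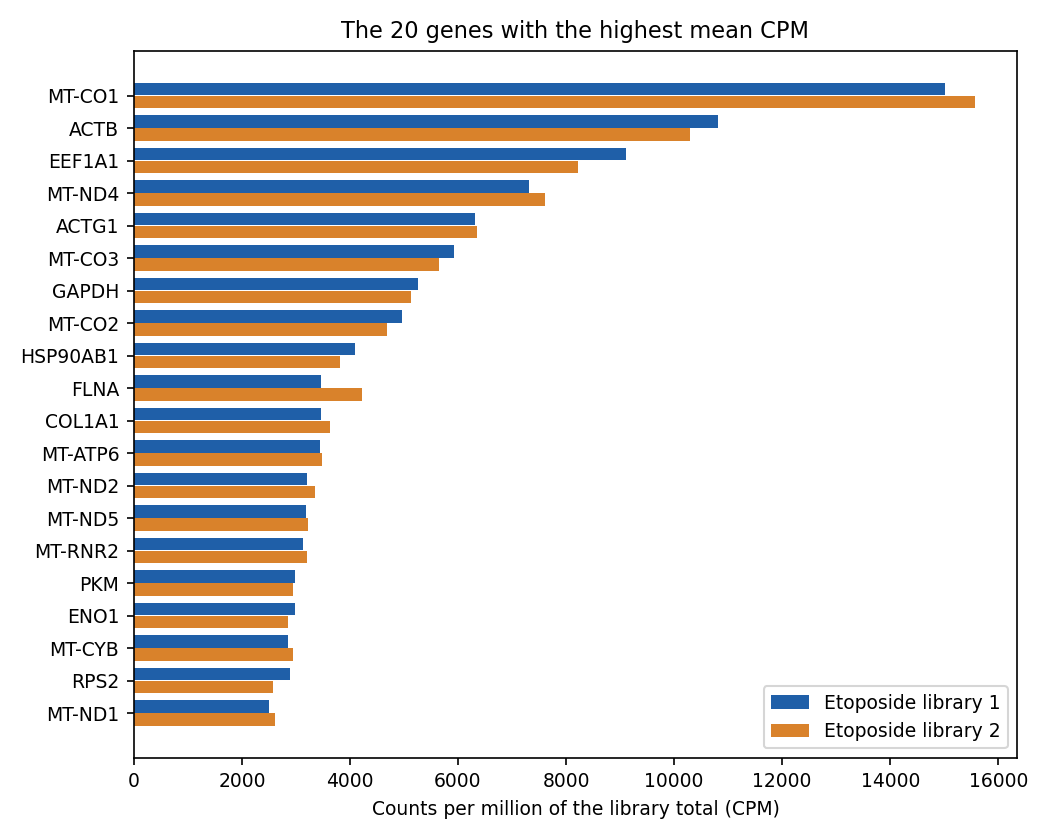
CPM (x axis) of the 20 genes with the highest mean CPM (y axis) in etoposide library 1 (blue bars) and library 2 (orange bars). Each bar is 1 library, the axis starts at 0, and the widest gaps between the libraries are at EEF1A1 (9104 and 8217 CPM), FLNA (3468 and 4229 CPM), MT-CO1 (15012 and 15569.5 CPM) and ACTB (10819.5 and 10302.5 CPM).

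The counts were spread over many genes. The most counted gene held 1.50% and 1.56% of all counts in libraries 1 and 2, the first 10 genes 7.23% and 7.15%, the first 100 genes 20.4% and 19.9%, and the first 1000 genes 50.1% and 49.1%. A library reached 50% of its counts with 997 genes in library 1 and 1050 in library 2, and 90% with 6353 and 6465 genes.

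Per kilobase of exons, short transcripts moved ahead. The first 9 places were all mitochondrial mRNAs, from 9735 and 10097 CPM per kilobase for MT-CO1 to 2498 and 2588 for MT-CYB, the apocytochrome b gene. ACTB was the first nuclear gene, at 2456 and 2339 CPM per kilobase, followed by GAPDH at 2197 and 2141 and FTL at 1981 and 1802. EEF1A1 fell to place 24, with 904.7 and 816.5 CPM per kilobase, because its annotated exons sum to 10063 bases. Its place depends on the length used: by the longest annotated transcript EEF1A1 and RPL8 entered the first 20, and RPS12 and TMSB10 left. COL1A1 stood at 384 and 402 CPM per kilobase.

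All 37 mitochondrial genes were counted. The 13 mitochondrial mRNAs held 5.08% and 5.18% of all counts, the 2 ribosomal RNAs 0.364% and 0.370%, and the 22 tRNAs 0.0270% and 0.0261%. The cytochrome oxidase subunits MT-CO1, MT-CO3 and MT-CO2 led the mRNAs per kilobase, and the 7 genes for subunits of complex I (MT-ND1 to MT-ND6 and MT-ND4L) ranged from 5306 and 5523 CPM per kilobase for MT-ND4 to 896 and 835 for MT-ND6. MT-ND6 is the one mRNA read from the light strand, and the libraries carried no strand mark, so its value cannot be told apart from heavy-strand RNA across the same bases. MT-ATP8 had the lowest value of the mRNAs, 281 and 334 CPM per kilobase, and its exon overlaps that of MT-ATP6, which stood at 5046 and 5117. The 16S ribosomal RNA MT-RNR2 had 3137 and 3214 CPM and the 12S ribosomal RNA MT-RNR1 507 and 481 CPM. Among the tRNAs only MT-TN and MT-TC passed 50 CPM in both libraries, with 60.2 and 60.3 CPM for MT-TN and 50.3 and 51.0 CPM for MT-TC.

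Nuclear protein coding genes held 92.3% of counts in library 1 and 92.0% in library 2, mitochondrial genes 5.48% and 5.57%, lncRNAs 1.33% and 1.41%, and pseudogenes 0.806% and 0.867%. All other classes held 0.131% and 0.146% together. The list names 16739 lncRNAs, of which 2306 (13.8%) had at least 10 counts in both libraries and 9 had 100 CPM or more. Of the 15182 pseudogenes, 916 (6.03%) had at least 10 counts in both. Library 2 gave a larger share than library 1 to lncRNAs (ratio 1.06), pseudogenes (1.08) and the other classes (1.11), but not to nuclear coding genes (0.997).

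**Figure D2:**
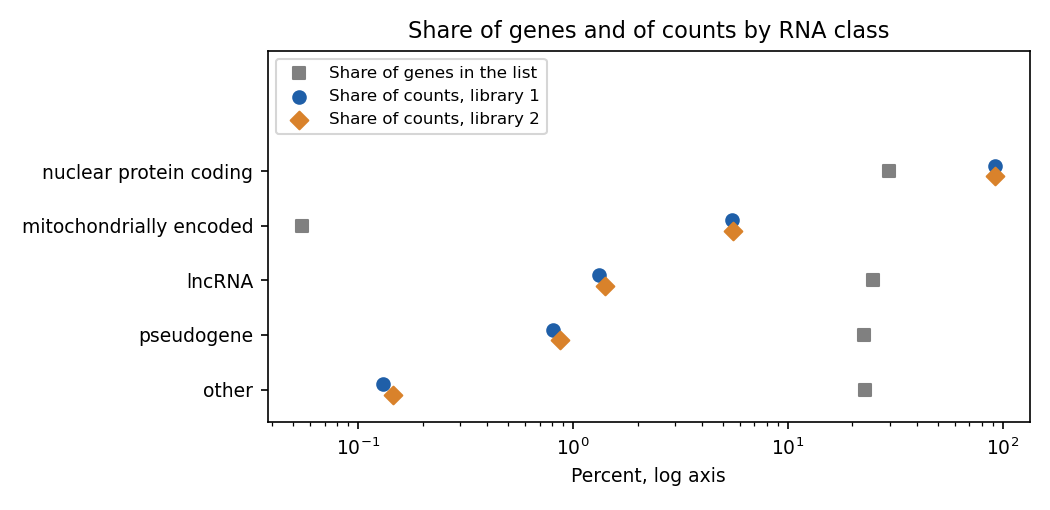
Percent (x axis, log scale) of the genes in the list (grey squares) and of the counts in library 1 (blue circles) and library 2 (orange diamonds) for 5 RNA classes (y axis). Nuclear coding genes and the 37 mitochondrial genes took a larger share of counts than of genes, and lncRNAs, pseudogenes and the other classes a smaller one.

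NEAT1, the architectural RNA of nuclear paraspeckles, was the most counted lncRNA, with 339 and 355 CPM. NORAD, which binds Pumilio proteins and is known to be induced by DNA damage, had 179.1 and 179.9 CPM. FGD5-AS1 had 168 and 174 CPM, EBLN3P 124 and 144 CPM, and SNHG1, a host gene of small nucleolar RNAs, 131 and 127 CPM. TUG1 had 126 and 151 CPM, but the annotation used does not place it in the lncRNA class, so the class values above leave it out. MALAT1, a nuclear speckle RNA, was lower, at 98.7 and 105 CPM. Per kilobase the order differed, and NORAD (33.2 and 33.3 CPM per kilobase) and SNHG1 (33.1 and 31.9) stood above NEAT1 (14.9 and 15.6) and MALAT1 (9.46 and 10.1). Transcripts of the DNA damage response were counted as well, PURPL at 64.7 and 76.3 CPM and MIR34AHG, the host of miR-34a, at 26.5 and 28.5 CPM. Of 37 well known non-coding RNAs in the list, 26 reached 1 CPM in both libraries, and TERC, RMRP, RN7SK, RN7SL2 and RPPH1, all known to lack a poly-A tail, had no count. RN7SL1, also made without a poly-A tail, had 34.5 and 38.4 CPM. In all, 3879 lncRNAs (23.2%) overlap coding exons on the other strand, and these genes held 38.2% and 38.4% of lncRNA counts over all their exons. Without strand, counts in the shared bases cannot be told apart from the coding gene, and how many fall there was not measured.

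The processed pseudogenes with the most counts were copies of ribosomal protein and HMGB1 genes. RPS2P5, a processed copy of RPS2, had 593.5 and 535.9 CPM, RPS28P7 had 201 and 181 CPM, RPSAP15 had 180.2 and 165.7 CPM, HMGB1P6 had 66.7 and 71.5 CPM and RPL10P9 had 73.6 and 60.02 CPM. The unnamed ENSG00000237550 led the transcribed processed pseudogenes with 333 and 276 CPM, before DUXAP10 (136 and 141 CPM), SMPD4BP (108 and 113 CPM), HMGB1P5 (49.2 and 43.4 CPM) and NCOR1P4 (43.1 and 43.2 CPM). MTATP6P1 (253 and 241 CPM), MTND2P28 (215 and 260 CPM) and MTCO1P12 (27.9 and 27.7 CPM), copies of mitochondrial genes on chromosome 1, led the unprocessed pseudogenes, with DDX12P (54.3 and 69.9 CPM) and FRG1FP (25.8 and 26.0 CPM). Among transcribed unprocessed pseudogenes HERC2P2 (84.0 and 94.8 CPM), NSUN5P1 (65.7 and 65.9 CPM), EP400P1 (58.1 and 62.7 CPM), ZNF252P (56.8 and 59.2 CPM) and SDHAP1 (52.0 and 59.0 CPM) were first. All of these share sequence with a parent gene, and their values are uncertain because the counting of reads with several matches is not given in the sources used here. Unconfirmed gene models (class TEC) held 0.0530% and 0.0604% of counts, led by ENSG00000279207 (71.4 and 78.3 CPM), ENSG00000279088 (30.02 and 28.4 CPM), ENSG00000280180 (20.7 and 25.2 CPM), ENSG00000280202 (17.8 and 21.5 CPM) and ENSG00000279059 (13.8 and 17.6 CPM).

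The machinery for making and folding proteins was expressed nearly in full, beside 65.6% of all protein coding genes at 1 CPM in both libraries. Of 87 cytoplasmic ribosomal protein genes, 84 reached 1 CPM in both libraries, and together they held 5.74% and 5.09% of counts, led by RPS2 (2893 and 2569 CPM), RPLP0 (2588 and 2342 CPM), RPL4 (2384 and 2160.5 CPM) and RPSA (2077 and 1869 CPM). Of 63 translation factor genes 58 did, led by EEF1A1, EEF2 (1845 and 1946 CPM), EIF4G2 (1536 and 1548 CPM) and EIF4G1 (1135 and 1210.2 CPM). EEF1G, a subunit of the same elongation complex that most cells use, was listed at 0 in both libraries, and RPS10 at 2.19 and 3.93 CPM, so both values are uncertain. EEF1A2, the paralog of EEF1A1 known for brain and muscle, had 731 and 672 CPM. All 16 heat shock protein genes were above 1 CPM, led by HSP90AB1, HSP90AA1 (2306 and 2138 CPM), HSPA8 (1580.3 and 1531 CPM) and HSPD1 (1217 and 1118 CPM), while 8 of the 9 genes of the CCT chaperonin, which folds actin and tubulin, were above 1 CPM, from 387 and 362 CPM for CCT2 to 879 and 792 CPM for CCT8. The exception was CCT6B, a testis paralog, at 0.140 and 0.281 CPM.

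Glycolysis, the proteasome and splicing followed the same pattern, beside the same 65.6% of all protein coding genes. All 18 glycolysis genes passed 1 CPM, led by GAPDH, PKM (2985 and 2952 CPM), ENO1 (2989 and 2848 CPM) and TPI1 (1488 and 1275 CPM). The exons of ALDOA, the main aldolase, had only 24.7 and 23.9 CPM. They share bases with a second gene read in the same direction, where reads may be left uncounted, so this low value is uncertain. Of 48 proteasome genes 46 passed 1 CPM, led by PSMD2 (1063 and 1036 CPM), PSMA7 (441 and 406 CPM), PSMC5 (356 and 320 CPM) and PSMD3 (345 and 330 CPM), while PSMA6, whose exons also share bases with another gene, had 5.64 and 2.81 CPM and PSMA8, a testis subunit, no count. Of 26 hnRNP genes 22 did, led by HNRNPA1 (1297 and 1157 CPM), and HNRNPCL1, HNRNPCL2, HNRNPCL3 and HNRNPCL4 had no count. All 12 SR splicing factors passed, from 2.24 and 3.23 CPM for SRSF12 to 508 and 477 CPM for SRSF5. All 28 cytoskeleton genes passed as well, led by ACTB, ACTG1, FLNA and TUBB (2551 and 2491 CPM), and ACTA2, the smooth muscle actin, was the lowest at 1.40 and 1.26 CPM.

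The bone label was met by some osteoblast markers and not by others. Of 16 markers, 8 (50%) reached 1 CPM in both libraries, against 65.6% of all protein coding genes. COL1A1 had 384.5 and 402.4 CPM per kilobase and SPARC, a matrix glycoprotein of bone, 248.6 and 239.99 CPM per kilobase. The transcription factor RUNX2, the master regulator of the osteoblast lineage, was present at 4.71 and 4.84 CPM, the growth factor BMP2 at 25.3 and 27.3 CPM, the homeobox factor MSX2 at 18.9 and 17.5 CPM, the alkaline phosphatase ALPL at 10.0 and 9.20 CPM, and osteopontin (SPP1) at 1.77 and 1.61 CPM. Other markers, regulators among them, were near 0. BGLAP (osteocalcin) had 0.373 and 0.140 CPM, SP7 (osterix) 0.233 and 0.211 CPM and DLX5 0.280 and 0.351 CPM. DMP1 had 0.0932 and 0.211 CPM, SOST 0 and 0.211 CPM, IBSP 0.0932 and 0 CPM and PHEX 0.140 and 0.491 CPM. Type I collagen is built from products of COL1A1 and COL1A2, yet COL1A2 (chr7:94394895-94431227) had 5 and 2 counts, or 0.0216 and 0.0130 CPM per kilobase, against 74285 and 51627 counts for COL1A1 (chr17:50184101-50201632).

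Mesenchymal markers were mostly present. Of 15 markers, 12 (80%) reached 1 CPM in both libraries, against 65.6% of all protein coding genes. VIM, the intermediate filament of mesenchymal cells, had 855 and 786 CPM, the matrix protein FN1 500.4 and 625 CPM, the hyaluronan receptor CD44 147 and 157 CPM, THY1 136 and 134 CPM and N-cadherin (CDH2) 126 and 136 CPM. PDGFRB had 39.3 and 43.9 CPM, ENG 27.2 and 33.1 CPM, the transcription factors SNAI2 24.3 and 24.7 CPM and ZEB1 16.9 and 18.4 CPM, S100A4 12.0 and 9.62 CPM, PRRX1 6.39 and 5.69 CPM and PDGFRA 1.91 and 1.76 CPM. ZEB2 (0.326 and 0.702 CPM) and NT5E (0.186 and 0.281 CPM) were below 1 CPM, and the bone and mesoderm factor TWIST1 had no count in either library.

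The cell type label, epithelial, was met only in part. Of 15 epithelial markers, 6 (40%) reached 1 CPM in both libraries, against 65.6% of all protein coding genes. The simple-epithelium keratins KRT8 (938 and 848 CPM) and KRT18 (231 and 214 CPM) were abundant, the tight junction gene CLDN4 had 28.7 and 24.99 CPM, and the adhesion molecule EPCAM had 13.7 and 11.9 CPM. E-cadherin (CDH1), the defining adhesion protein of epithelia, had 1.40 and 1.40 CPM, against 126 and 136 CPM for CDH2, which is 0.230 and 0.231 CPM per kilobase for CDH1 and 14.6 and 15.8 for CDH2. KRT14 had 2.89 and 1.90 CPM and KRT5 0.793 and 1.47 CPM. The epithelial regulators were at or near 0, with ESRP2 at 0.746 and 0.983 CPM, GRHL2 at 0.280 and 0.281 CPM, ESRP1 at 0.0466 and 0.0702 CPM, and TP63, OVOL1, KRT19 and CLDN3 at 0 in library 2 and at 0.0932, 0.0466, 0.0466 and 0.233 CPM in library 1. CLDN7 had 0.839 and 0.281 CPM.

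**Figure D3:**
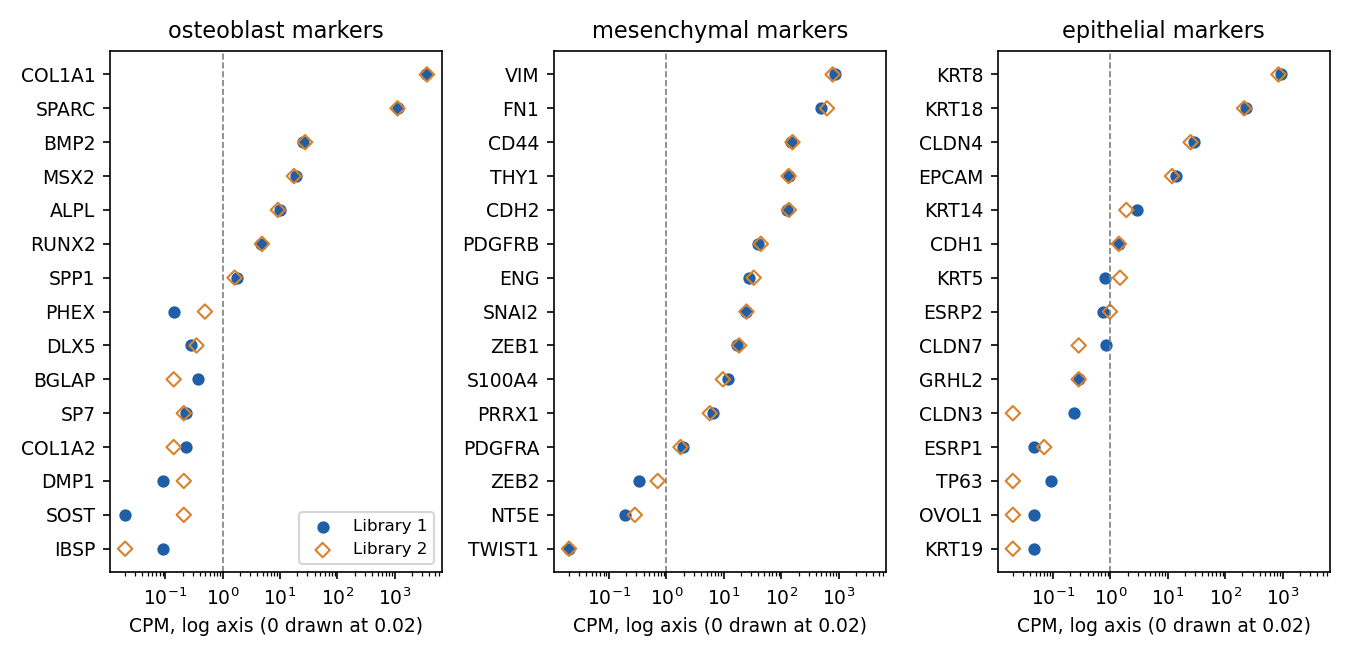
CPM (x axis, log scale, 0 drawn at 0.02) of osteoblast, mesenchymal and epithelial markers (y axis) in library 1 (filled circles) and library 2 (open diamonds), with a dashed line at 1 CPM. One osteoblast marker is not drawn. The line is passed in both libraries by 8 of all 16 osteoblast, 12 of 15 mesenchymal and 6 of 15 epithelial markers, and the widest gaps between the libraries are below it, as for SOST and PHEX.

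Markers of other lineages differed by list, with the neural, chondrocyte and endothelial lists above 50% of genes at 1 CPM and the others below. Only the neural list, at 75%, was above the 65.6% of all protein coding genes, with chondrocyte at 60% and endothelial at 62.5%. In the chondrocyte list 6 of 10 genes reached 1 CPM, led by the cartilage link protein HAPLN1 (78.3 and 78.0 CPM), the chondrogenic factor SOX9 (65.9 and 68.0 CPM), MATN3 (22.4 and 26.5 CPM) and the cartilage proteoglycan gene ACAN, while COL2A1, the main collagen of cartilage, had 0.513 and 1.40 CPM and COL9A1 no count. In the neural list 9 of 12 did, led by the neurofilament gene NEFL (171 and 155 CPM), RBFOX3 (22.7 and 24.7 CPM), OLIG2 (19.999 and 20.4 CPM) and SLC17A7 (15.8 and 18.96 CPM). In the adipocyte list 3 of 8 did, with LPL (18.0 and 19.4 CPM), PPARG (8.67 and 6.81 CPM) and CEBPA (7.18 and 5.48 CPM), and ADIPOQ had no count. One hepatocyte gene of 8 did, the protease inhibitor SERPINA1 (125 and 122 CPM), with ALB at 0.186 and 0.211 CPM and TTR uncounted, and 1 muscle gene of 10, the calcium channel RYR1 (34.7 and 29.3 CPM), with MYF5 uncounted.

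In the endothelial list 5 of 8 genes reached 1 CPM, the highest being TEK (4.57 and 6.74 CPM), but CDH5 had 0.186 and 0.421 CPM. Blood markers passed in 2 of 12 cases, CD34 (5.31 and 5.55 CPM) and ITGAM (4.34 and 6.11 CPM), and PTPRC, the common leukocyte marker, had 0.280 and 0.421 CPM while the globin genes HBA2 and HBB had no count. Among pluripotency genes only SOX2 passed (1.72 and 2.25 CPM), NANOG had 0.0466 and 0.0702 CPM, and DPPA4 and TDGF1 had none. None of 8 germ line genes reached 1 CPM in both libraries, and DAZL, TNP1 and PRM2 had no count.

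HOX genes, the homeobox factors that set position along the body axis, had expressed members in each of 4 clusters. All 39 had a count in at least 1 library. In both libraries 30 (76.9%) reached 1 CPM, against 65.6% of all protein coding genes. These were 9 of 11 in HOXA, 9 of 10 in HOXB, 7 of 9 in HOXC and 5 of 9 in HOXD. HOXB9 (chr17:48621156-48626358) was first, with 45.3 and 45.2 CPM per kilobase, before HOXB2 (19.99 and 18.01), HOXB7 (12.7 and 11.5) and HOXC13 (10.1 and 9.17). Of the 24 genes of paralog groups 6 and above, 20 reached 1 CPM in both libraries with a median of 12.8 CPM over all 24, and of the 15 genes of groups 1 to 5, 10 did with a median of 1.66 CPM. The last groups split between the clusters, with HOXC13 at 23.9 and 21.6 CPM, HOXB13 at 15.7 and 15.4 CPM and HOXA13 at 8.20 and 8.56 CPM, but HOXD13 at 0.186 and 0.140 CPM and HOXD12 at 0.186 and 0.140 CPM. HOXC5 had 0 and 0.211 CPM, HOXA2 0.186 and 0.0702 CPM, HOXB1 0.280 and 0.0702 CPM, HOXC12 0.559 and 0.140 CPM and HOXA6 0.420 and 0.491 CPM.

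**Figure D4:**
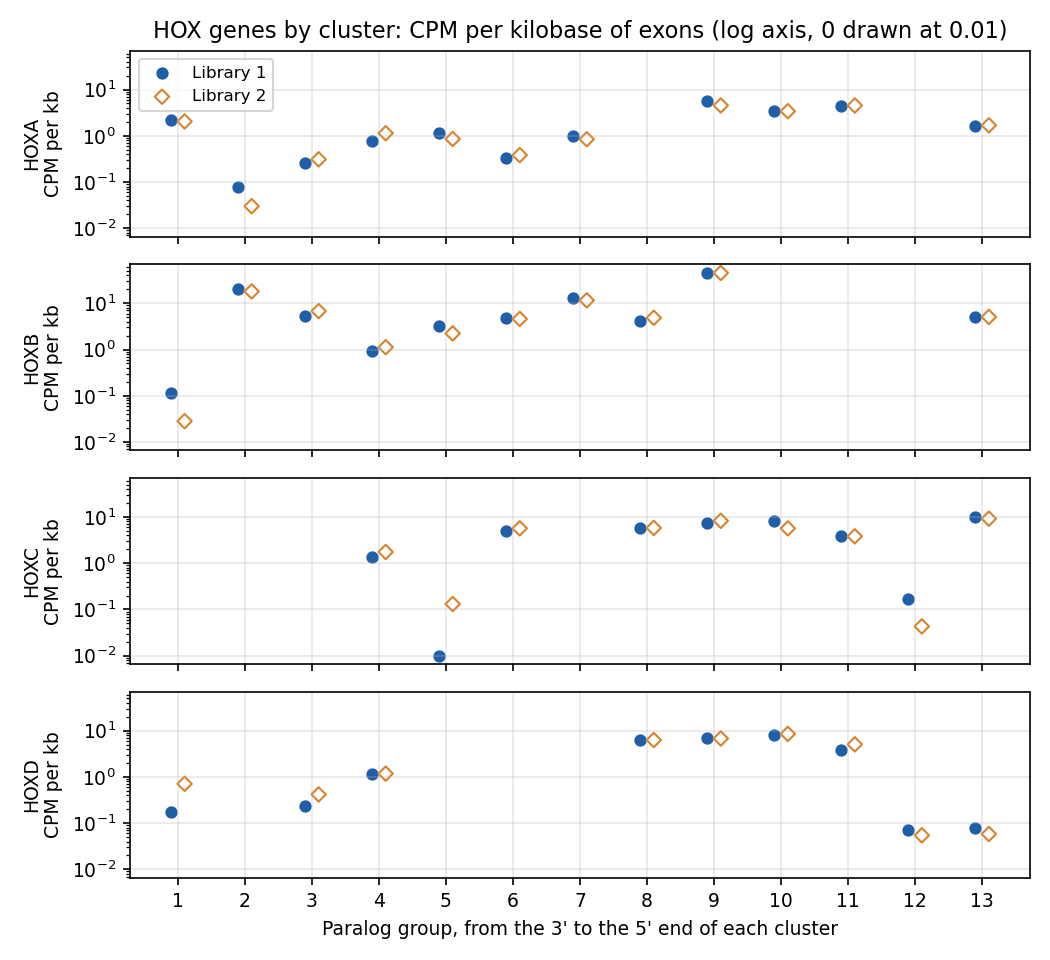
CPM per kilobase of exons (y axis, log scale, 0 drawn at 0.01) of HOX genes by paralog group (x axis) in the HOXA, HOXB, HOXC and HOXD clusters (panels), in library 1 (filled circles) and library 2 (open diamonds). HOXB9 is highest at 45.3 and 45.2, and HOXD12 and HOXD13 lie far below HOXD8 to HOXD11.

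Members of the matrix, adhesion and keratin families stood at very different levels. Of 44 collagen genes 26 (59.1%) reached 1 CPM in both libraries, near the 65.6% of all protein coding genes. Per kilobase COL1A1 was first, followed by COL6A1 (122 and 127 CPM per kilobase), COL6A2 (91.4 and 91.3) and COL4A2 (52.0 and 54.0), the latter of the network collagen of basement membranes. COL10A1 of hypertrophic cartilage was near 0, at 0.0932 and 0.211 CPM. Of 30 genes matched as integrins, 4 of which encode related proteins and no subunit, 25 (83.3%) passed 1 CPM. ITGB1, the common beta chain, was most counted, with 1250.4 and 1261 CPM, before ITGA3 (769 and 855 CPM), ITGB5 (332 and 352 CPM) and ITGAV (267 and 288 CPM). Of 55 keratin genes 12 (21.8%) passed 1 CPM, led by KRT81 (1051 and 942 CPM), a hair keratin, and by KRT8, KRT17 (372 and 336 CPM), a keratin of wounded skin, and KRT80 (311 and 332 CPM). KRT81 (chr12:52285913-52291534) stood at 545 and 488 CPM per kilobase, above COL1A1, while its near copies KRT86 and KRT83 had 1.59 and 1.76 CPM and 0.0932 and 0.281 CPM.

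Cancer-testis genes of the MAGE family, normally kept to the germ line and the placenta, were strongly expressed in part. MAGEA4 (chrX:151912495-151925171) had 696 and 623 CPM, MAGEA1 191 and 177 CPM, MAGEA6 156 and 151 CPM, MAGEA12 138 and 124 CPM and MAGEB2 123 and 112 CPM. Of 34 MAGE genes 16 (47.1%) passed 1 CPM in both libraries, against 65.6% of all protein coding genes. Among these 16 were the widely expressed MAGED1 (303 and 277 CPM) and MAGED2 (163 and 147 CPM), and 10 MAGE genes had no count, MAGEC2 among them. MAGEA3 and MAGEA6 are near copies, and their values (33.1 and 28.4 CPM for MAGEA3) are uncertain for that reason. The GAGE, XAGE and PAGE genes were low, 6 of 24 (25%) above 1 CPM, with XAGE5 the highest at 7.04 and 7.79 CPM. Receptor tyrosine kinases passed 1 CPM in 47 of 58 cases (81.0%), led by AXL (387 and 376 CPM), DDR1 (164 and 171 CPM), FGFR1 (152 and 169.8 CPM) and PTK7 (149 and 156 CPM), with EGFR at 15.7 and 16.9 CPM and no count for KIT and EPHA7.

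The targets of the drug and the genes of the pathways it is known to act on were present, with no untreated value set beside them. TOP2A and TOP2B, which encode both forms of topoisomerase II and were chosen for that reason and not by the rule for named genes, had 356 and 401 CPM for TOP2A and 132 and 133 CPM for TOP2B. Of 29 genes known to be induced by DNA damage 28 passed 1 CPM in both libraries, against 65.6% of all protein coding genes. The median was 84.8 CPM over the list and 9.18 CPM over all protein coding genes, 2308 of which had no count. The glycolysis list had a median of 174 CPM and the immediate-early list 58.2 CPM, so this level alone shows no response. CDKN1A, the inhibitor of cyclin-dependent kinases, led with 603 and 599 CPM, before PLK2 (241 and 242 CPM), the ribonucleotide reductase subunit RRM2B (171 and 173 CPM) and PHLDA3 (151 and 136 CPM), and the ubiquitin ligase MDM2 had 131 and 134 CPM. SPATA18 was the one gene of this list with no count. Of 18 immediate-early genes 17 passed, led by JUN (249.5 and 249.996 CPM), IER3 (247 and 241 CPM), JUND (160.2 and 149.6 CPM) and JUNB (156 and 147 CPM), while FOS had 10.0 and 11.5 CPM and KLF4 0.373 and 0.562 CPM.

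All 15 genes of the integrated stress and unfolded protein responses passed 1 CPM, led by the chaperone HSPA5 (729 and 676 CPM), ATF4 (438 and 380 CPM), ATF5 (122 and 114 CPM) and SESN2 (82.6 and 87.0 CPM), with DDIT3 lowest at 4.20 and 4.91 CPM. Of 18 inflammatory cytokine genes 8 (44.4%) passed, led by TGFB1 (236 and 235 CPM), CSF1 (123 and 129 CPM), LIF (79.0 and 87.1 CPM) and IL11 (77.7 and 64.5 CPM). Beside these 2 lists, 65.6% of all protein coding genes reached 1 CPM in both libraries. CXCL8 had 37.5 and 32.9 CPM, but IL6 had 0.932 and 0.421 CPM, IL1B 0 and 0.140 CPM, and CXCL1, IFNB1 and IFNL1 had no count.

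Histone genes were listed in groups by the kind of message they make, and the cause of their levels was not tested. Replication-dependent histone mRNAs end in a stem-loop and not in a poly-A tail, and the libraries were made from poly-A RNA. Of 67 such genes 16 (23.9%) passed 1 CPM in both libraries, against 65.6% of all protein coding genes. No count was found for 23, and the 67 together held 0.0588% and 0.0532% of counts. H1-2 (270 and 238 CPM), H2BC12 (168 and 154 CPM), H4C9 (39.5 and 38.2 CPM) and H2AC6 (26.6 and 25.7 CPM) led them. Of the 11 replication-independent genes 10 passed, holding 0.329% and 0.306% of counts, led by the variants H3-3B (702 and 651 CPM), H2AZ1 (615 and 555 CPM) and H2AX (474 and 447 CPM). The groups overlapped, since H1-2 lay near the median of 252 CPM over these 11 genes. H2AX is the variant that is phosphorylated beside DNA breaks.

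Silent genes were clustered in families and along chromosomes. Of 415 olfactory receptor genes 299 (72.0%) had no count, of 94 keratin-associated protein genes 71 (75.5%), of 46 defensin genes 38 (82.6%), of 19 late cornified envelope genes 12 (63.2%), of 13 interferon alpha genes 12 (92.3%) and of 24 bitter taste receptor genes 11 (45.8%), against 11.6% of all protein coding genes. The remaining members were nearly all under 1 CPM, with 4 olfactory, 2 taste receptor and 1 keratin-associated gene above it in both libraries. OR51B5, whose exons overlap other genes on the same strand, had 22.5 and 20.4 CPM, and KRTAP2-3 had 4.06 and 4.70 CPM. The longest run of neighbouring coding genes with none at 1 CPM in both libraries was on chromosome 11, with 61 genes from OR4C13 to APLNR (chr11:49952391-57237250), 56 of them olfactory receptors. On chromosome 1, 39 genes from FLG2 to PRR9 (chr1:152348735-153219310), the cluster that builds the outer skin, formed a run, as did 36 genes from GRIK1 to KRTAP19-8 (chr21:29536933-31038476), 33 of them keratin-associated. A run of 26 genes from OR5F1 to OR5M1 (chr11:55993681-56614874), 25 of them olfactory receptors, held no count at all. The 2308 uncounted coding genes were shorter than the 13041 genes at 1 CPM or more, with a median exon length of 1656 bases against 5482 bases.

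The spread between the libraries was set against counting error alone, gene by gene, with an exact two-sided binomial test on the 17207 genes that met 10 counts in each and Benjamini-Hochberg adjustment. This compares 2 libraries and not 2 conditions. The log2 ratio of library 2 to library 1 had a median of 0.04 and an SD of 0.34 over these genes, where counting alone gives an SD of 0.24. At an adjusted p under 0.05, 2008 genes (11.7%) were higher and 1244 (7.23%) lower in library 2. A further limit of 2-fold left 196 genes higher in library 2 (1.14%) and 34 higher in library 1 (0.198%). Over all genes with at least 1 count in either library, 369 were higher in library 2 and 81 in library 1. With at least 20 counts in both together, a filter added after seeing the data, 276 were higher in library 2 and 98 in library 1. Of 12786 genes that met 50 counts in each, 14 were over 2-fold higher in library 2 and 1 in library 1.

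The SD of the log2 ratio fell from 0.59 among 3024 genes of 1 to 3 CPM to 0.21 among 3532 genes of 10 to 30 CPM and 0.13 among 417 genes of 300 to 1000 CPM. Counting alone gives 0.40, 0.12 and 0.02 at these levels. After removing the counting part, the coefficient of variation of a single library was 21.7%, 8.47% and 6.44% in the same bins. No gene with a mean of 30 CPM or more differed by over 2-fold.

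Part of this spread followed the length of the gene. Over 9749 protein coding genes with a mean of 10 CPM or more, Spearman's correlation between exon length and the log2 ratio of library 2 to library 1 was 0.458, a description across genes that share the same 2 libraries and are not independent replicates. The median log2 ratio rose from -0.16 among 70 genes with exons of up to 1000 bases to -0.06 among 2231 genes of 2000 to 4000 bases, 0.10 among 2271 genes of 8000 to 16000 bases and 0.14 among 473 longer genes. The share of genes higher in library 2 rose from 12.9% to 80.3% between the first and the last of these groups. The correlation was 0.455 without the ribosomal protein genes and 0.483 over the 4711 genes whose exons overlap no other gene.

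**Figure D5:**
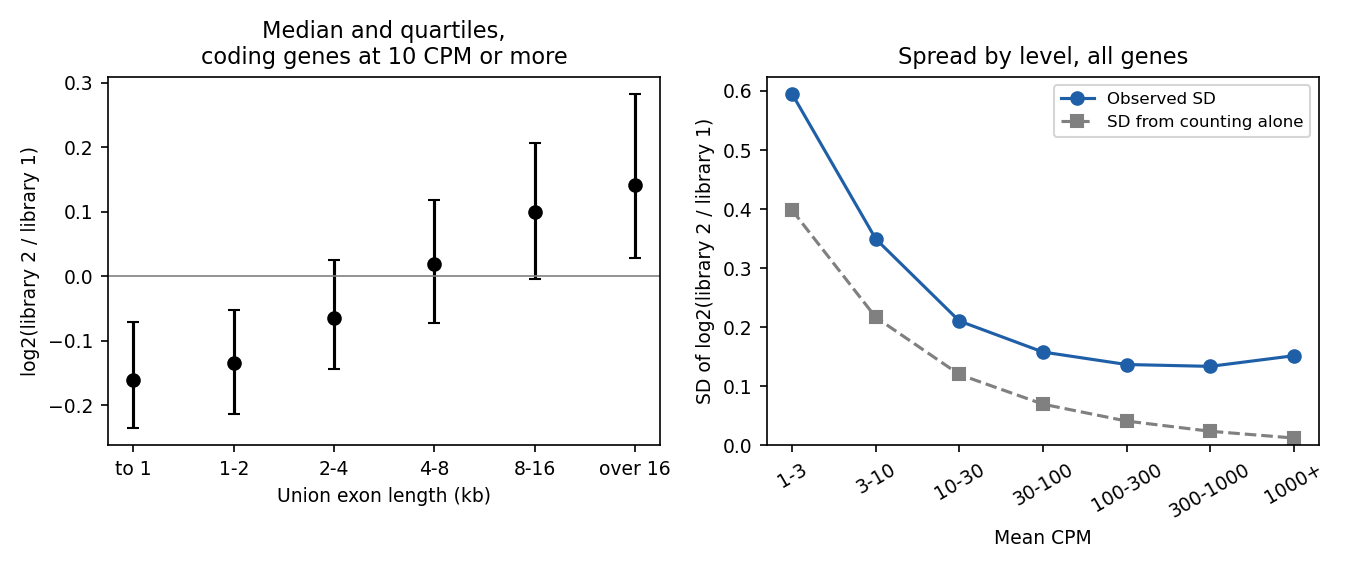
Left, median log2 ratio of library 2 to library 1 (y axis, bars are quartiles) by union exon length (x axis) for coding genes with a mean of 10 CPM or more. Right, SD of the log2 ratio (y axis) by mean CPM (x axis), observed (circles) and from counting alone (squares), for all genes counted in both libraries. The median passes from -0.16 to 0.14 with length, and the observed SD stays above the counting SD at every level.

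Members of some families leaned to the same side between the libraries. Among cytoplasmic ribosomal protein genes, 79 of 84 were lower in library 2, with a median log2 ratio of -0.17. Of all 15501 genes at 1 CPM in both libraries, 6964 were lower in library 2. The test was passed in that direction by 74 ribosomal protein genes and by 7.23% of all genes tested. That share covers genes of all levels, and a small gap passes more easily at high counts. The ribosomal protein list had a median of 547 CPM, and all genes of 300 to 1000 CPM had a median log2 ratio of -0.07. All 8 expressed CCT genes and all 16 heat shock genes were lower in library 2 as well, 8 and 12 of them past the test, with medians of -0.12 and -0.10. Shorter coding genes with a mean of 10 CPM or more leaned the same way. Their median log2 ratio was -0.16 for exons of up to 1000 bases, -0.13 from 1000 to 2000 and -0.06 from 2000 to 4000. In these groups 12.9%, 14.8% and 31.0% of genes were higher in library 2, and the lists were not matched for length. Genes with over 8000 bases of exons were more often higher in library 2, with exceptions such as EEF1A1 (log2 ratio -0.15) and NPM1, a nucleolar chaperone named after its values were seen (-0.16). FLNA had 3468 and 4229 CPM (log2 ratio 0.29, exact binomial test, adjusted p = 5.94e-281), FN1 500.4 and 625 CPM (0.32, adjusted p = 5.13e-51) and AHNAK, a giant scaffold protein named after its values were seen, 938 and 1214 CPM (0.37, adjusted p = 1.02e-131). By contrast CDKN1A (log2 ratio -0.01, adjusted p = 0.836), HOXB9 (0.00, adjusted p = 0.985) and SERPINA1 (-0.03, adjusted p = 0.707) did not pass the exact binomial test. Library depth and the length trend both separate the 2 libraries, and their part in these differences was not tested.

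Among genes that differed by over 2-fold and met 50 counts in each library, the 3 widest gaps were in SMG1P1, ANKRD36C and POTEF. SMG1P1, a copy of the kinase gene SMG1, had 59 and 115 counts (2.75 and 8.07 CPM, log2 ratio 1.55), ANKRD36C had 171 and 279 counts (7.97 and 19.6 CPM, 1.30) and POTEF, of a primate family of ankyrin-repeat genes fused to actin in some copies, had 292 and 442 counts (13.6 and 31.0 CPM, 1.19). The next were ZBTB47-AS1 (log2 ratio 1.16), ENSG00000243302 (1.11), POTEG (1.11), CDHR5 (1.11) and RBP5 (1.11). All 8 had an adjusted p of 0.000171 or less by the exact binomial test. With 50 counts in each library, the only gene over 2-fold higher in library 1 was SMPD3, a sphingomyelinase of bone and cartilage. It had 161 and 51 counts (7.51 and 3.58 CPM, log2 ratio -1.07, exact binomial test, adjusted p = 3.38e-05). The POTE family was looked at after these values were seen. Of its 11 coding genes 6 reached 1 CPM in both libraries, and all 6 were higher in library 2, with a median log2 ratio of 1.01, POTEE among them at 11.8 and 24.99 CPM. These copies share sequence, so their counts are not independent of each other and are uncertain.

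The largest single gap was in BCYRN1, also named after its values were seen. This brain cytoplasmic RNA of 200 bases is read from chr2:47335315-47335514 by RNA polymerase III and carries an internal stretch of A. It had 265 counts in library 1 and 15 in library 2, or 12.4 and 1.05 CPM, a log2 ratio of -3.55 (exact binomial test, adjusted p = 4.75e-38), 11.7-fold. It belongs to a family of Alu-related repeats, so its count is uncertain as well.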

How the data were processed

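RNA-Seq was performed by the authors on U2OS cells treated with etoposide, in 2 libraries, from poly-A RNA with second strands that carry no strand mark. Per the submitters' processing notes, HISAT2 2.1.0, Subread 2.0.0 with featureCounts and DESeq2 1.30.1 were used with the GRCh38 build, and strand and multi-mapping options are not given in the sources used here. The deposited values are raw counts per Ensembl gene with no normalization, 21450766 and 14244235 in total. They were divided by each library total to give CPM, and by the union of exons in GENCODE release 44, which matched 60357 of the 67140 genes and left 0.0411% and 0.0445% of counts unmatched. Counting intervals cover counting error only.

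The spread between the libraries was tested with an exact two-sided binomial test per gene (scipy 1.17.1), expected share from the library totals, at least 10 counts in both and Benjamini-Hochberg adjustment over all genes tested. The test was checked on simulated libraries with counting error and set changes only, without the added spread or the length trend of these data. With 2 libraries of 1 group no test across samples was made. TMM and upper-quartile factors (edgeR 4.0.16) and DESeq2 1.42.0 size factors were alternatives.

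Named genes followed a rule: the first 20 by CPM and by CPM per kilobase, the first 5 of each class above 0.05% of counts, in each list the first 4 and its uncounted members, every osteoblast, mesenchymal and epithelial marker, and the 8 largest folds each way among genes apart with at least 50 counts in both. Expressed members of small families could also be named. Members below 1 CPM and long sets of uncounted ones are given by count or example. Some genes of these lists enter the counts but are not reported here by name. The gene lists and the choice of libraries were made with earlier results of these data known.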

Additional observations from a re-analysis of the deposited data

How the results depend on the processing

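Under other settings, 26288 genes had at least 1 count in both libraries. The first 100 genes held 20.1% of counts as a mean over the libraries, 16.6% without mitochondrial genes and 35.2% of CPM per kilobase (TPM). Without mitochondrial genes the shares were 97.5% for nuclear coding genes, 1.45% for lncRNAs and 0.885% for pseudogenes. Without genes whose exons overlap another gene they were 90.3% for nuclear coding, 7.61% for mitochondrial and 1.01% for lncRNA genes, and as TPM 72.6%, 20.5% and 2.07%, with 3.91% for pseudogenes. The SD of the log2 ratio was 0.21 with at least 50 counts in both and 0.94 with no filter and a pseudocount of 1 count. Of the 230 genes apart, 15 remained with at least 50 counts in both, and the number was 450 with at least 1 count in either, 504 over 1.5-fold and 374 with at least 20 counts together (added after seeing the data). TMM, DESeq2, upper-quartile and mitochondria-free scaling gave 211 to 232, with 78.6% to 85.3% higher in library 2.

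With either library alone, the genes with 10 counts were 17693 to 18805, those with 0 counts 36485 to 37335, and the share of the first 100 genes 19.9% to 20.4%. Class shares were 92.0% to 92.3%, 5.48% to 5.57%, 1.33% to 1.41% and 0.806% to 0.867%. Of 69 named genes, the mean CPM of 29 moved by over 1 SD without mitochondrial genes in the total. Under TMM 0 did, but TMM shifts the 2 libraries in opposite directions, so their mean could hardly change. Leaving out mitochondrial genes raises every gene by nearly the same factor, so the 29 are only the genes with the smallest SD for their level. No paired analysis was possible because only 1 group was analysed. The shallower library 2 limits genes near 1 CPM, where the counting SD of the log2 ratio is 0.40.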

Other observations

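Chromosomes differed in the share of their coding genes at 1 CPM or more in both libraries, from 53.7% of 218 genes on chromosome 21 and 56.9% of 853 genes on chromosome X to 71.3% of 1242 genes on chromosome 2 and 71.8% of 851 genes on chromosome 16. Chromosome 1 held the most coding counts, 9.31% and 9.33% of the libraries, and chromosome 21 the fewest, 0.829% and 0.839%.

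Other families differed in how many members were expressed, beside 65.6% of all protein coding genes at 1 CPM in both libraries. Of 509 ZNF genes, most of which encode zinc finger repressors, 420 (82.5%) reached 1 CPM in both libraries, yet the family held only 0.971% and 1.03% of counts, and ZNF664 was the most counted at 196 and 202 CPM. Of 48 nuclear receptor genes 31 (64.6%) did, led by the clock repressor NR1D2 (97.2 and 98.4 CPM), NR2C2 (86.0 and 109 CPM), NR1H2 (82.7 and 72.3 CPM) and NR4A1 (71.5 and 75.6 CPM), while the oestrogen receptor ESR1 had 0.559 and 0.491 CPM. Of 53 clustered protocadherins, adhesion proteins best known from neurons, 22 (41.5%) did, led by PCDHB5 (29.5 and 27.9 CPM), PCDHGC3 (16.1 and 16.1 CPM), PCDHB6 (10.9 and 8.71 CPM) and PCDHA6 (8.81 and 10.4 CPM).

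Thinned at random to the total of library 2, library 1 gave a count for 29123 genes and library 2 for 29805 as deposited, in 1 random draw that matched only the totals.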
